A study of Mus musculus with 42 samples.

Results

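The olfactory receptor (Olfr) genes described here are the protein-coding genes whose symbol starts with Olfr on mouse autosomes other than chromosomes 2 and 7, in the GENCODE vM21 annotation of mm10. They number 590 of the 20807 autosomal protein-coding genes, of 21951 on all chromosomes. Lamin B1 (LMNB1) chromatin immunoprecipitation and sequencing was made in liver of 14 C57Bl/6 wild-type mice. The non-synchronized (NS) group held 2 mice killed at noon on the day before food restriction. CT0, CT6, CT12, CT18, CT24 and CT30 held 2 mice each, fasted for 24 h. Food was given again at circadian time CT0, so CT0 is the time of refeeding itself and the later groups are refed mice. The mice were housed in cycles of 12 h light and 12 h dark. CT stands for circadian time in hours after refeeding at lights on. One label field calls the mice female and another male, and the study's methods state male. No age is given here. The measurement is the list of lamina-associated domains (LADs) that the authors called in each mouse, on bulk liver, so a LAD call does not say in which liver cells the contact occurred. The tissue field of the labels reads wild type, and liver is named in the protocols and in the study's methods. The LAD lists give no expression and the RNA-seq of the series was not used here, so the tissue was not checked against liver markers.

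Olfactory receptors are G protein-coupled receptors that olfactory sensory neurons use to detect odorants, and each neuron expresses a single receptor allele while the other receptor genes stay silent in heterochromatin. The genes stand in arrays formed by tandem duplication. LMNB1 is a filament protein under the inner nuclear membrane, and LADs are long domains of mostly repressed chromatin in contact with it. A gene was taken as in a LAD when its start site lay in an interval of that mouse's list.

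With neighbouring start sites at most 1 Mb apart, the 590 genes formed 38 groups on 15 autosomes. There were 15 clusters of 10 or more genes holding 516 genes, 15 clusters of 2 to 9 genes holding 66, and 8 genes that stood alone. The largest was chr9:37708964-40190134 with 95 genes from Olfr160 to Olfr986. It was followed by chr19:11826803-13921866 with 66 genes from Olfr1417 to Olfr1505, and by chr10:128989431-130214403 with 60 genes from Olfr9 to Olfr827. Chromosome 17 carried 49 genes from Olfr90 to Olfr136 at chr17:37083871-38336643, the array beside the class I major histocompatibility genes of the H2-M region. A second array on chromosome 9, chr9:18751507-20336094, held 37 genes from Olfr24 to Olfr18.

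The 250 bases before the start site of 6 of the genes are shown because these genes stand for the LAD states found below. Olfr136 in the array on chromosome 17 was in a LAD in every mouse. Olfr1443 and Olfr1444 are the neighbours in a large cluster that most often had opposite LAD states. Olfr926 is the middle gene of the largest cluster. Olfr320 and Olfr1389 are the middle genes of large clusters that held no LAD. All 6 genes are on the plus strand, and the sequences are from GRCm38.p6, at chr17:38329581-38329830, chr19:12677862-12678111, chr19:12857033-12857282, chr9:38876876-38877125, chr11:58680849-58681098 and chr11:49422817-49423066 in that order. Capitals mark matches, on either strand, to the homeodomain core TAATTA or TAATTG, the EBF motif CCCNNGGG and the TATA motif TATAAA. Homeodomain and EBF factors are the transcription factor classes that bind near olfactory receptor promoters in sensory neurons.
Olfr136: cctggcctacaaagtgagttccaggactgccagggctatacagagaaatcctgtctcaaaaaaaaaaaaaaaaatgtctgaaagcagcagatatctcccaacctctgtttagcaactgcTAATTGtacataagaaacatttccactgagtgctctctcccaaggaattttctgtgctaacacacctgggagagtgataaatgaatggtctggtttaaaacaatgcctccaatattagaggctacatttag
Olfr1443: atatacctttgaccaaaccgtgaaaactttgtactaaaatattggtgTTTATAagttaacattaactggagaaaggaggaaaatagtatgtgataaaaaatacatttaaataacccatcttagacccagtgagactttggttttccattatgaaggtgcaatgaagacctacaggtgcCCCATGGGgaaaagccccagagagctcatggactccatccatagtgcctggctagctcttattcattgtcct
Olfr1444: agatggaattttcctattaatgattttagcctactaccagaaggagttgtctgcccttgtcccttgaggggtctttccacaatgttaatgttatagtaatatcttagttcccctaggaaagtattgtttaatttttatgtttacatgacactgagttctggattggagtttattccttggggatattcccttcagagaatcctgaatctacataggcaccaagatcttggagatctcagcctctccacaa
Olfr926: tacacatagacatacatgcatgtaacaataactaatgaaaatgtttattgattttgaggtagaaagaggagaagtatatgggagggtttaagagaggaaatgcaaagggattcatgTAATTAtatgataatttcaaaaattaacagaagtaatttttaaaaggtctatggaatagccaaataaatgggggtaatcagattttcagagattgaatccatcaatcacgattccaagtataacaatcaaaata
Olfr320: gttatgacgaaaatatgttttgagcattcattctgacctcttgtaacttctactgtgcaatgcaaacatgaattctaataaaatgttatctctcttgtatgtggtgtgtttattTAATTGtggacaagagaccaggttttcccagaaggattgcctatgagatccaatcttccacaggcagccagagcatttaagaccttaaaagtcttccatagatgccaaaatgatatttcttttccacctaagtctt
Olfr1389: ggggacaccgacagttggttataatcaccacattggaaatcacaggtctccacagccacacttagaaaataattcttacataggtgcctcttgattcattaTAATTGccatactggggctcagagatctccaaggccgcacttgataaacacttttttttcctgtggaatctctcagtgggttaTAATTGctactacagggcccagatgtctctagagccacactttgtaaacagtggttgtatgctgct

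These stretches were poor in CpG, with 0 in Olfr136 and Olfr1444, 1 in Olfr1443, Olfr926 and Olfr320, and 2 in Olfr1389. Over all 590 genes the 250 bases had a median GC content of 38%, against 54.8% before the start sites of the 20217 other autosomal protein-coding genes. No CpG was found in 40.5% of the Olfr stretches and in 6.42% of those of the other genes. A homeodomain core was present in 46.4% of the Olfr stretches, against 11.3% of the stretches of all 20807 autosomal protein-coding genes. The EBF motif was present in 13.9% against 14%, and the TATA motif in 23.6% against 11.6%. Among the Olfr genes, median GC was 42.4% in the 224 genes found in a LAD in no mouse, 39.0% in the 96 found in 1 to 6 mice and 35.6% in the 270 found in 7 or more. The TATA motif was present in 12.1%, 24.0% and 33.0% of these sets and the homeodomain core in 42.9%, 52.1% and 47.4%. Both motifs are rich in A and T. The TATA motif was most frequent in the set with the lowest GC, but the homeodomain core in the set of 1 to 6 mice. The part of base composition in these frequencies was not tested, and a match is not a bound site. The stretches also hang on the GENCODE start. Of 481 Olfr genes with a RefSeq promoter entry, only 73 started within 100 bp of it, so a stretch may miss the promoter.

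The libraries differed in how finely LADs were called. Apart from 2 to 12 starts per library that lie off whole kb, LAD starts fell on a grid in each library. Its step, taken here as the bin of the LAD caller, ranged from 4 kb to 61 kb, the number of LADs from 86 to 341, and autosomal coverage from 333.0 Mb to 651.6 Mb. The lists carry no score or read count, so the depth behind a call is unknown and the precision comes only from the 2 mice per time point. The deposited libraries carry running numbers 1, 2 and 3 besides the replicate labels, and 6, 5 and 3 libraries carry them. What these numbers stand for is not given in the sources used here.

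In liver, the Olfr genes were in LADs more often than other genes, in every mouse, but how many were in a LAD differed widely between mice. In NS liver, 49 of the 590 were in a LAD in replicate 1 and 289 in replicate 2, where 4.18% and 8.28% of all autosomal protein-coding genes were. At CT0 the counts were 182 and 309, with 5.54% and 8.62% of all genes. CT6 gave 191 and 316, with 7.3% and 10.2% of all genes, and CT12 gave 304 and 302, with 8.51% and 9.85%. At CT18, 203 and 296 of the 590 were in a LAD, with 9.79% and 10.8% of all genes, and at CT24, 288 and 258, with 9.48% and 8.2%. CT30 gave 60 and 141, with 6.31% and 5.79% of all genes. The mice at CT12 were nearly equal, whereas the NS mice were the farthest apart of any time point.

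**Figure D1:**
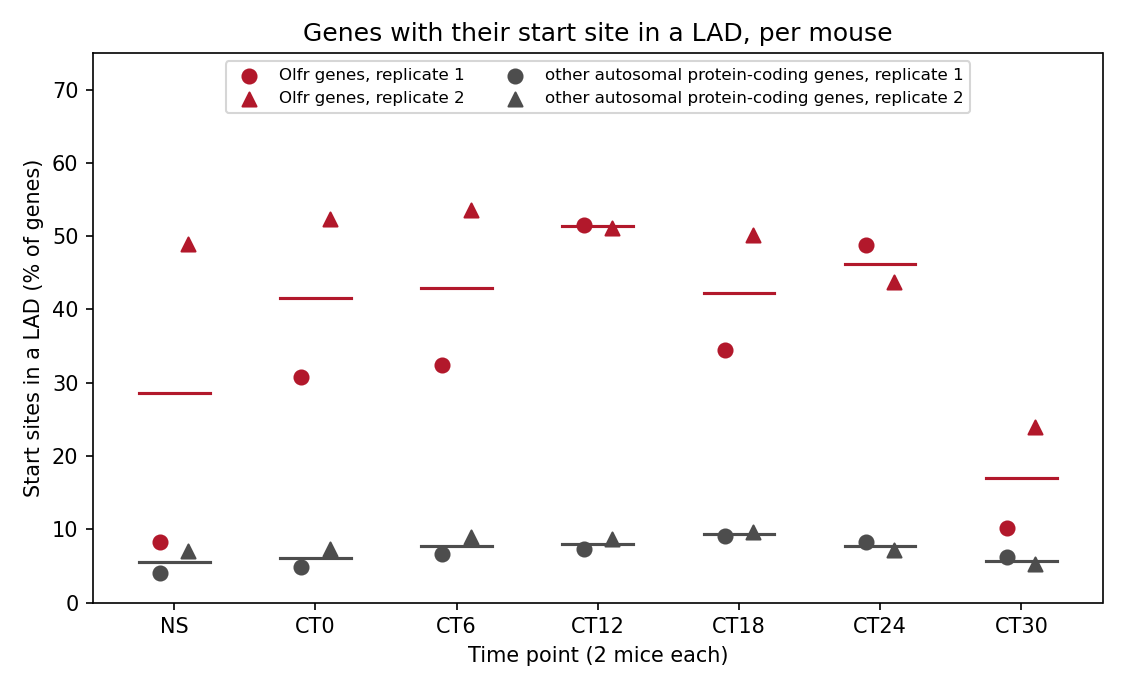
Percentage of the 590 Olfr genes (red) and of the other autosomal protein-coding genes (grey) with their start site in a LAD, per mouse (circles, replicate 1; triangles, replicate 2) and time point, with the mean of the 2 mice as a line. The Olfr genes are higher in every mouse, and NS replicate 1 (8.31%) and CT30 replicate 1 (10.2%) stand lowest.

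Over the 14 mice 38.6% ± 15.6 (SD, n = 14) of the Olfr genes were in a LAD, against 7.17% ± 1.68 (SD, n = 14) of the 20217 other autosomal protein-coding genes. The difference was 31.4 percentage points ± 14.4 (SD, n = 14) and was above 0 in 14 of 14 mice, from 3.97 points in CT30 replicate 1 to 45 points in CT0 replicate 2 (exact two-sided sign-flip permutation test over mice, p = 0.000122, the smallest it can give). Without NS replicate 1 and CT30 replicate 1, which stand apart from the rest, it was 36 points ± 9.35 (SD, n = 12). The difference moved with the grid step. In the 7 libraries with steps of 4 to 14 kb, 288 to 316 of the Olfr genes were in a LAD and the difference was 42.8 points ± 1.92 (SD, n = 7). In the 7 with steps of 18 to 61 kb, 49 to 258 were in a LAD and the difference was 20.1 points ± 12.1 (SD, n = 7). The part of the grid step in the level was not tested.

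Compared with other chemoreceptor families in the same lists, these Olfr genes were less often in LADs than the 294 Olfr genes on chromosome 2 and than the Vmn2r genes, the type 2 vomeronasal receptors that detect peptide pheromones. The chromosome 2 genes averaged 79.0% ± 25.2 and the 121 Vmn2r genes 56.8% ± 11.3 (SD, n = 14). The difference from chromosome 2 was -40.4 points, with these Olfr genes lower in 13 of 14 mice, and the exception was NS replicate 1, where 0% of the chromosome 2 genes were in a LAD. The difference from Vmn2r was -18.3 points, lower in 14 of 14 mice (exact sign-flip permutation tests adjusted over 4 families, p = 0.000488 for both). The 244 Olfr genes on chromosome 7, which include the class I receptors, averaged 45.1% ± 29.2, and the 208 Vmn1r genes, type 1 vomeronasal receptors, 44.5% ± 11.9 (SD, n = 14). These differences of -6.49 and -5.88 points were not past the threshold (exact sign-flip permutation tests, adjusted p = 0.232 for both), with SDs over mice of 18 and 16.8 points. Without NS replicate 1 and CT30 replicate 1 the difference from Vmn1r was -0.341 points and that from Vmn2r -15.8 points.

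In the main tests, with 2 mice per time point, differences between time points in the share of Olfr genes in LADs were not past the threshold. The mean share was 41.6% ± 15.2 at CT0 and 43% ± 15 at CT6. It was 51.4% ± 0.240 at CT12 and 42.3% ± 11.1 at CT18, and then 46.3% ± 3.60 at CT24 and 17% ± 9.71 at CT30 (SD, n = 2 each). CT30 was the lowest, and both of its mice lay below the 10 mice of the other CTs. The CT12 mice had grid steps of 5 and 10 kb and the CT30 mice of 31 and 46 kb. Time and grid step cannot be told apart in the means of these time points. Over all 6 CTs the F ratio was 2.49 (exact permutation test over the 10395 divisions of 12 mice into 6 pairs, p = 0.169). When LADs shorter than 1 Mb were left out, the range of the CT means was 29.2 points in place of 34.3 and the exact permutation test gave p = 0.0490. CT0 exceeded NS by 13 points, within the spread of the NS mice, whose mean was 28.6% ± 28.8 (SD, n = 2; exact two-sided permutation test, p = 0.667, smallest possible 0.333). Without NS replicate 1 the difference was -7.37 points.

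At NS, 32 of the 590 genes were in a LAD in both mice, where 2.45% of all autosomal protein-coding genes were. CT0 had 174 such genes and CT6 had 182, against 3.93% and 6.21% of all genes. CT12 had 278 and CT18 had 197 (all genes 7.49% and 7.79%), and CT24 had 249 and CT30 had 23 (all genes 6.88% and 4.57%). At CT30 the share of the Olfr genes, 3.90%, was thus below that of all genes, while 178 of them were in a LAD in at least 1 of the 2 mice. The 23 genes were 15 of the array from Olfr24 to Olfr18 on chromosome 9 and 8 of that on chromosome 17.

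Over the 14 mice, 224 of the 590 genes (38%) were in a LAD in none, where 82.9% of all autosomal protein-coding genes were in none. In any mouse 366 were in a LAD (62.0%, all genes 17.1%). Of these, 96 were in a LAD in 1 to 6 mice, 262 in 7 to 13 and 8 in all 14 (1.36%, all genes 0.875%). In 9 to 14 mice 237 were in a LAD (40.2%, all genes 6.93%). The genes thus lay mostly at the ends of this range, in no mouse or in most mice.

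**Figure D2:**
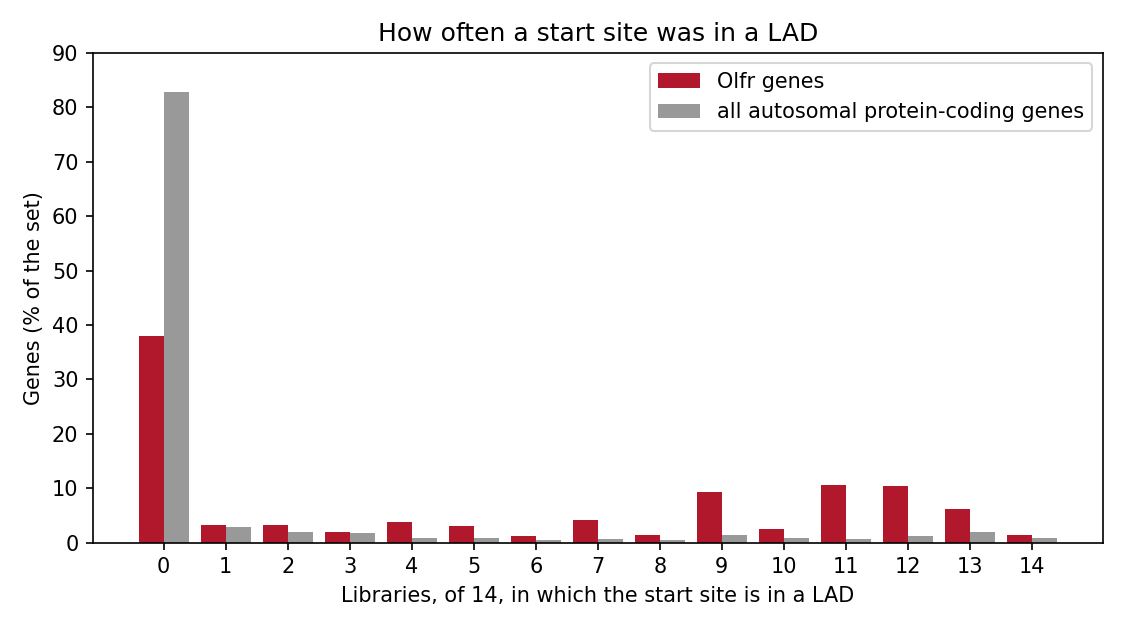
Percentage of the 590 Olfr genes (red) and of all 20807 autosomal protein-coding genes (grey) by the number of libraries, of 14, in which the start site was in a LAD. None of the 14 holds 38% of the Olfr genes and 82.9% of all genes, and the Olfr genes form a further group between 9 and 13 libraries.

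Clusters differed in LAD state. Of the 15 clusters of 10 or more genes, 10 had genes in a LAD in at least 1 mouse and 5 had none. Of the 15 clusters of 2 to 9 genes, 4 had genes in a LAD, and of the 8 lone genes 0 did. Over the 15 larger clusters and 14 mice, a cluster had no gene in a LAD in 131 cases, some of its genes in 67 and all of them in 12. The 516 genes of the larger clusters were in a LAD at 43.7% ± 17.6 and the 66 genes of clusters of 2 to 9 at 3.46% ± 5.40 (SD, n = 14). The lone genes were at 0% in every mouse. The larger clusters exceeded the smaller clusters and lone genes together by 40.6 points ± 16.7 (SD, n = 14), and did so in 14 of 14 mice (exact sign-flip permutation test, p = 0.000122, the smallest it can give). The genes of a cluster share their surroundings and are not independent. The 3 clusters of 50 or more genes averaged 62.0% ± 29.8 (SD, n = 14).

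By chromosome, the highest mean share was on chromosome 9 (78.2% ± 31.3 of 132 genes) and the next on chromosome 17 (68.7% ± 17.7 of 53 genes; SD, n = 14). Chromosome 19 had 47.3% ± 26.5 of 66 genes and chromosome 10 had 46.7% ± 36.7 of 70 genes, which are closer to each other than their spread over mice. Chromosome 16 followed with 20.4%, chromosome 11 with 13.8% and chromosome 1 with 13.5%, of 36, 82 and 27 genes. Chromosomes 4, 13, 14 and 6 had means of 3.57%, 1.90%, 1.07% and 0.765%, and chromosomes 3, 5, 8 and 15, with 2, 1, 5 and 9 genes, had 0%. The Olfr genes exceeded the mean share of the other genes of their chromosome on 7 of the 15 chromosomes, those named first, where the other genes had means from 1.96% (chromosome 19) to 7.61% (chromosome 17). On the other 8 the Olfr genes lay below, and the other genes there had means from 1.94% (chromosome 15) to 11.9% (chromosome 14). The 7 chromosomes hold 466 of the 590 genes and the 8 hold 124.

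**Figure D3:**
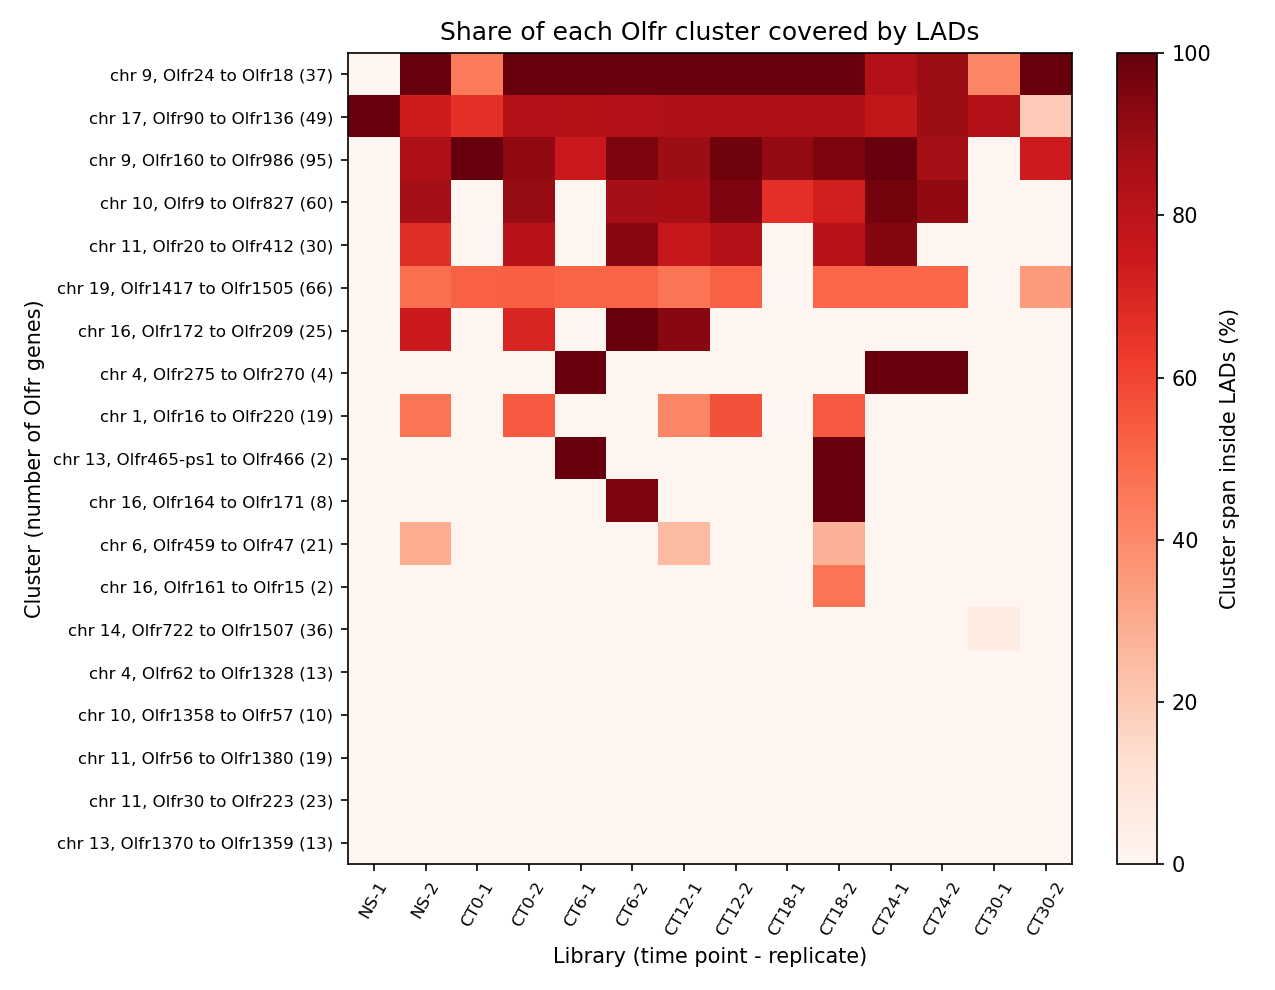
Percentage of the span of each Olfr cluster inside LADs (colour) in each of the 14 libraries, for the 14 clusters with a gene in a LAD and the 5 clusters of 10 or more genes without one, in order of mean coverage. Clusters on chromosomes 9 and 17 are covered in most libraries, and NS-1 (NS replicate 1) has a covered cluster only on chromosome 17.

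The array on chromosome 17 was the most constant. Its 49 genes were in a LAD in numbers of 49 and 32 at NS, 29 and 39 at CT0, 38 and 39 at CT6, 40 and 40 at CT12, 40 and 40 at CT18, 35 and 42 at CT24, and 39 and 8 at CT30, for replicates 1 and 2. Every mouse had a LAD there, which held all 49 genes only in NS replicate 1 and the fewest in CT30 replicate 2. These LADs ran on past the last gene, Olfr136, by 2.41 to 4.43 Mb, and the 1 Mb after the array was 100% covered in all 14 mice. The LAD start varied from 0.0569 Mb before the array to 1.00 Mb inside it. The number of mice with a gene in a LAD therefore rose along the array, from 1 for the 7 genes from Olfr90 to Olfr96, through 6 for Olfr99 and 9 for Olfr101, to 13 for the 21 genes from Olfr111 to Olfr130.

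The 8 genes in a LAD in all 14 mice were the last 8 of this array, Olfr131, Olfr132, Olfr133, Olfr134, Olfr135, Olfr138, Olfr137 and Olfr136. In the mouse where they were nearest to a LAD border, Olfr131 lay 0.000692 Mb inside it and Olfr136 0.242 Mb. That mouse sets the count: without CT30 replicate 2, 29 genes were in a LAD in all other mice, and without NS replicate 1, 23. Genes beyond the array shared the state of its near end. Esp36, Esp34 and Esp31, which encode exocrine gland-secreted peptides, were in a LAD in 14 mice. On the other side, none of H2-M9, H2-M1, H2-M5 and Mog was in a LAD in any mouse, and Gabbr1, a GABA-B receptor subunit gene, was in 1. Within the array H2-M2 was in a LAD in 12 mice, H2-M3 in 2 and Ubd in 1.

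The array from Olfr24 to Olfr18 on chromosome 9 was likewise the edge of a longer LAD, on its proximal side. Of its 37 genes, 0 and 37 were in a LAD in NS replicates 1 and 2, 16 and 37 at CT0, 37 and 36 at CT6, and 37 and 37 at both CT12 and CT18. At CT24 the counts were 29 and 31, and at CT30 15 and 37. All 13 LADs began 2.07 to 5.34 Mb before the first gene. Most ended close to the last, at a median of 0.00791 Mb after it, and the earliest end was 0.930 Mb before it. The first 15 genes, from Olfr24 to Olfr847, were in a LAD in 13 mice, and the last, Olfr18, in 8. The zinc finger gene Zfp317 within the array was in a LAD in 11 mice. Of 11 genes in the 0.5 Mb after it, 10 were in a LAD in no mouse, among them the ubiquitin-like gene Ubl5.

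The largest cluster, from Olfr160 to Olfr986 on chromosome 9, was covered by a LAD of about its own length. Of its 95 genes, 0 and 79 were in a LAD at NS, 95 and 87 at CT0, 68 and 91 at CT6, 83 and 93 at CT12, 85 and 91 at CT18, 95 and 85 at CT24 and 0 and 71 at CT30. The LAD was missing from NS replicate 1 and CT30 replicate 1 and present in the other 12 mice. In 11 of those 12 it ran past neither end of the cluster by more than 0.25 Mb, and in CT0 replicate 1 it began 1.89 Mb before it. The 57 genes from Olfr888 to Olfr959, Olfr926 among them, were in a LAD in all 12, and the number fell towards both ends, to 3 for Olfr160 and 4 for Olfr986. Of the genes between the receptors, Vwa5a was in a LAD in 12 mice, AW551984 in 11 and Tmem225 in 5. The 13 genes in the 0.5 Mb before the cluster, with the axon guidance receptor genes Robo3 and Robo4 and the neurogranin gene Nrgn, were in a LAD in 1 or 2 mice.

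The clusters on chromosomes 10 and 11 had LADs in fewer mice. These passed neither end of the cluster by more than 0.25 Mb in 7 of 7 mice on chromosome 11 and in 6 of 9 on chromosome 10. Of the 60 genes from Olfr9 to Olfr827 on chromosome 10, 0 and 51 were in a LAD at NS, 0 and 53 at CT0, 0 and 51 at CT6, 51 and 56 at CT12, 41 and 43 at CT18, 58 and 54 at CT24, and 0 and 0 at CT30. The 9 LADs began 0.0346 to 0.191 Mb inside the cluster and ended between 0.254 Mb before and 0.326 Mb after its last gene. Olfr9 and Olfr763, the first pair of genes, were in none, and the 39 genes from Olfr773 to Olfr818 in all 9. The 1 Mb before this cluster, which holds genes used by every cell such as the ribosomal protein genes Rpl41 and Rps26, was 0% covered in every mouse. Of the 30 genes from Olfr20 to Olfr412 on chromosome 11, 0 and 19 were in a LAD at NS, 0 and 22 at CT0, 0 and 25 at CT6, 22 and 23 at CT12, 0 and 22 at CT18, 25 and 0 at CT24 and 0 and 0 at CT30. These 7 LADs measured 0.684 to 0.952 Mb. The transient receptor potential channel genes Trpv1 and Trpv3 before the cluster and Pafah1b1 after it, a gene of neuronal migration, were in a LAD in no mouse, while Zfp735 and Zfp616 inside it were in 7.

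The cluster on chromosome 16 at chr16:58759544-59363993, 25 genes from Olfr172 to Olfr209, had a LAD in 4 mice, with 20 genes in NS replicate 2, 18 in CT0 replicate 2, 25 in CT6 replicate 2 and 24 in CT12 replicate 1. The cluster on chromosome 1 at chr1:172950409-174451277, 19 genes from Olfr16 to Olfr220, had one in 5 mice, with 11 genes in NS replicate 2, CT0 replicate 2 and CT12 replicate 2 and 9 in CT12 replicate 1 and CT18 replicate 2. Its first 6 genes were in none. The LAD also took in the interferon-inducible genes between the receptors, of which Ifi203, Ifi204, Ifi205 and Mndal were in a LAD in 5 mice and Aim2, a sensor of cytosolic DNA, in 0. The LADs of these clusters of chromosomes 1, 11 and 16 were found in libraries with fine grids. Those on chromosomes 16 and 1 were in 4 and 5 mice, all with a step of 11 kb or less. Of the 7 mice with the LAD on chromosome 11, 6 had such a step and 1 had 14 kb, and no mouse with a larger step had it. The 9 mice with the LAD of the 60-gene cluster on chromosome 10 had steps up to 19 kb. No mouse with a larger step had that LAD, among them both CT30 mice (31 and 46 kb). The part of the grid step in these LADs was not tested.

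**Figure D4:**
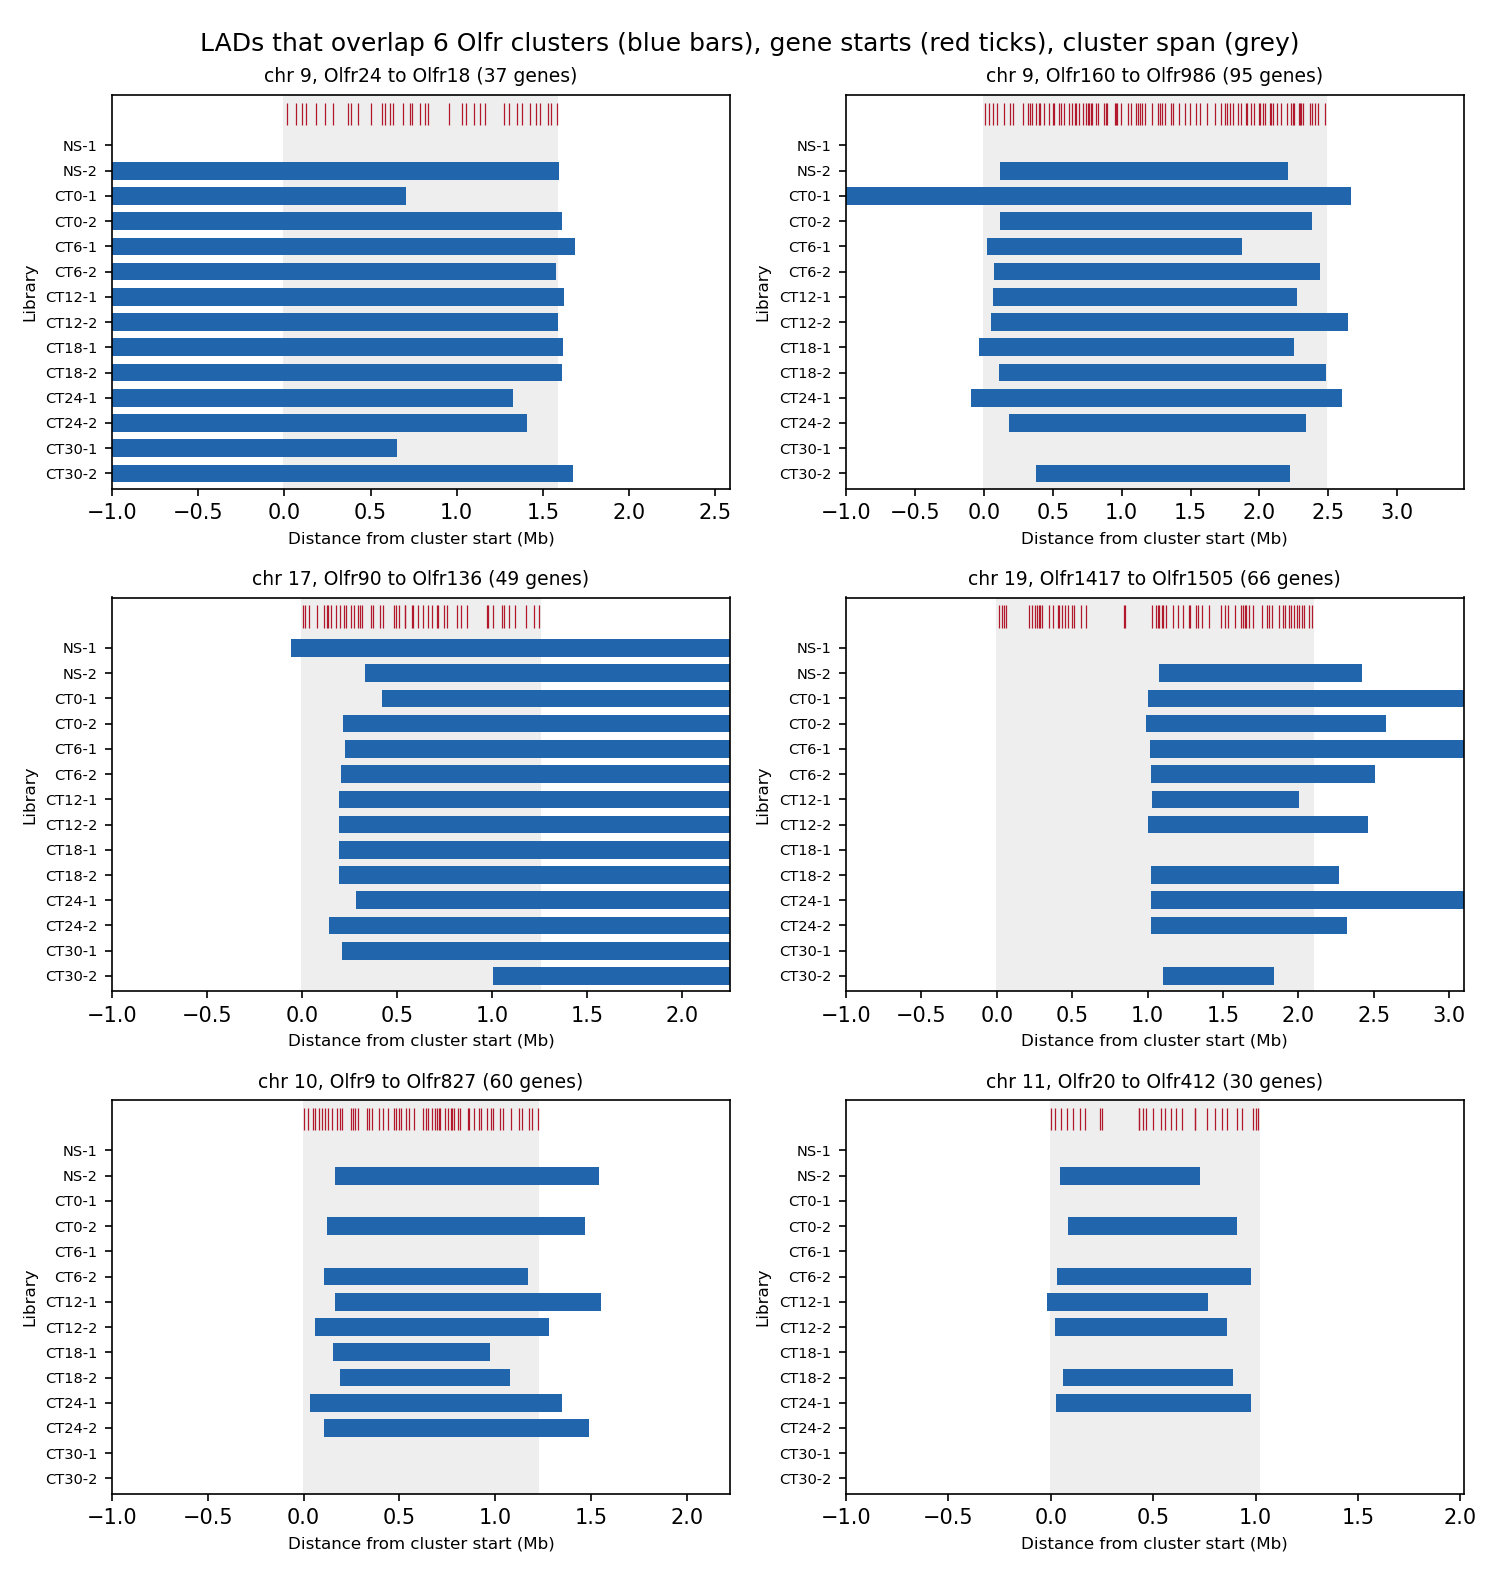
LADs of each library (blue bars) at 6 Olfr clusters, as distance in Mb from the cluster start, with gene start sites as red ticks and the cluster span in grey; bars are cut at 1 Mb beyond the cluster. LADs of the 37-gene chromosome 9 cluster enter from the left, those of chromosome 17 leave to the right, and those of chromosomes 10 and 11 begin and end near the cluster limits.

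The cluster on chromosome 19 was divided by a LAD border. Of its 66 genes, 0 and 39 were in a LAD at NS, 42 and 42 at CT0, 42 and 42 at CT6, 37 and 42 at CT12, 0 and 42 at CT18, 42 and 42 at CT24, and 0 and 25 at CT30. The 24 genes from Olfr1417 to Olfr1443 were in a LAD in no mouse, and the other 42, from Olfr1444 to Olfr1505, in 9 to 11. The LAD starts of 11 mice fell within 0.110 Mb of each other, 0.989 to 1.10 Mb from the cluster start. Olfr1443, at 12678112, and Olfr1444, at 12857283, are 0.179 Mb apart and had opposite states in 9 mice. Of the 501 pairs of neighbours in the larger clusters, 58 had opposite states in at least 1 mouse. Olfr1443 and Olfr1444 were the only pair that had them in 7 or more. The median spacing of neighbours in this cluster was 20.7 kb. A pair farther apart takes in more border positions, so the count depends on the distance. On chromosome 17, Olfr98 and Olfr99 (0.0197 Mb apart) had opposite states in 4 mice, and Olfr99 and Olfr101 (0.0209 Mb apart) in 3. Of the other genes inside the chromosome 19 cluster, 12 were in a LAD in no mouse. Among them were Osbp, an oxysterol-binding protein gene, and Glyat, a glycine N-acyltransferase gene of liver. Gm5244 was in a LAD in 4.

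A few genes were reached by a LAD in single mice or in mice of different time points. On chromosome 6, 1 of the 21 genes from Olfr459 to Olfr47, Olfr459 itself, was in a LAD in 3 mice, with the Sval genes next to it. On chromosome 14, 6 of 36 genes, from Olfr1512 to Olfr1507, were in a LAD in CT30 replicate 1 only. Olfr275, Olfr273, Olfr272 and Olfr270 on chromosome 4 were in a LAD in CT6 replicate 1 and in both CT24 mice, at the distal end of LADs of 2.87 to 3.29 Mb. Olfr465-ps1 and Olfr466 on chromosome 13 were in a LAD in 2 mice, and so were 7 of the 8 genes from Olfr164 to Olfr171 on chromosome 16.

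The clusters without a LAD in any mouse included 5 of 10 or more genes. They were chr11:58454105-59593289 with 23 genes from Olfr30 to Olfr223, chr11:48978889-49565859 with 19 from Olfr56 to Olfr1380, chr4:118658952-118938612 with 13 from Olfr62 to Olfr1328, chr13:21069334-21706833 with 13 from Olfr1370 to Olfr1359 and chr10:78517428-79036274 with 10 from Olfr1358 to Olfr57. The cluster on chromosome 13 lies beside the large histone gene cluster. Of the 224 genes in no LAD, 105 lay within 1 Mb of a LAD of some mouse, and the median of their smallest distances was 1.15 Mb. The lone genes in no LAD were Olfr1402, Olfr266, Olfr267, Olfr718-ps1, Olfr370, Olfr371, Olfr49 and Olfr19. Of these Olfr718-ps1 on chromosome 5 stayed farthest from LADs, at 33.7 Mb or more, and Olfr49 on chromosome 14 came nearest, at 0.330 Mb in its nearest mouse.

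The larger clusters that took part in LADs were poorer in GC than those that did not. Among those of 10 or more genes, the span had a median GC content of 38.8% (37.7 to 41.3%) in the 10 with genes in a LAD and of 41.7% (41.1 to 46.8%) in the 5 without, so that the ranges met only at their ends. The surrounding 1 Mb on each side had median GC contents of 41.6% and 47.3%, and median densities of 16.3 and 21.5 other protein-coding genes per Mb. Repeat-masked bases made up a median of 45.5% and 37.1% of the span. The 1-Mb windows of the autosomes had a median GC content of 41.7%. These values describe 15 clusters and were not tested. Smaller clusters and lone genes overlapped in GC. Their range was 34.7 to 43.2% in the 4 with genes in a LAD and 34.6 to 48.2% in the 19 without.

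**Figure D5:**
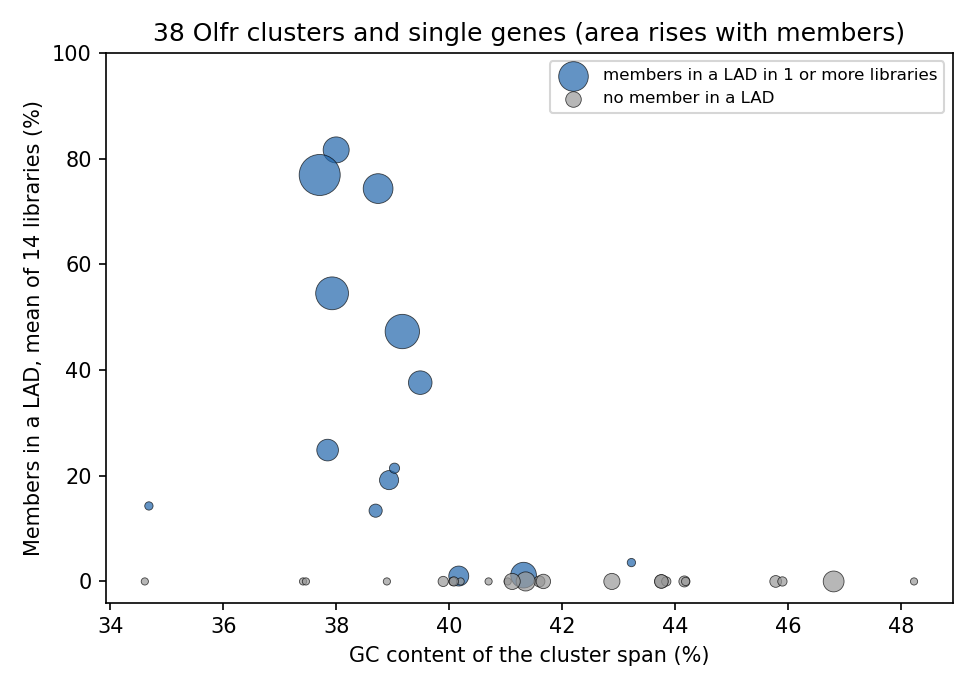
Mean percentage of genes in a LAD over 14 libraries against the GC content of the cluster span, for the 38 Olfr clusters and lone genes, with the area of a point rising with the number of genes. Among clusters of 10 or more genes, those with genes in a LAD (blue) lie between 37.7 and 41.3% GC. Those without (grey) lie between 41.1 and 46.8%. Smaller clusters and lone genes overlap, from 34.7 to 43.2% with genes in a LAD and from 34.6 to 48.2% without.

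Of the 38 groups, 14 varied between mice, and 0 of these 14 differed between CTs in the share of their span inside LADs (F ratio with an exact permutation test over divisions of the 12 mice, Benjamini-Hochberg adjusted p below 0.05 in 0.0% of the clusters tested). None had an unadjusted permutation p below 0.05 either. With 7 of the 14 the test could not reach 0.05, as a LAD was present in only 1 to 3 of the 12 mice, so it says nothing about these. In the other 7 the smallest were 0.128 for the 95-gene cluster on chromosome 9 and 0.148 for that on chromosome 19.

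Between consecutive time points, genes were counted as gained or lost when they were in a LAD in both mice of one time point and in neither mouse of the other. From NS to CT0, 11 genes were gained (all autosomal genes 0.346%) and 0 lost (all genes 0.38%). The gained genes were Olfr1444, Olfr1445 and Olfr1446 at the border on chromosome 19 and 8 genes, from Olfr974 to Olfr982, at the distal end of the 95-gene cluster. From CT0 to CT6 the counts were 0 gained and 0 lost, where 1.04% and 0.0913% of all genes were gained and lost. From CT6 to CT12, 14 were gained (all genes 0.538%) and 0 lost (0.442%), of which 9 lay on chromosome 1, from Olfr433 to Olfr419. From CT12 to CT18, 0 were gained (all genes 0.457%) and 8 lost (0.178%), which were Olfr822 to Olfr827 on chromosome 10 and Olfr376 and Olfr1 on chromosome 11.

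From CT18 to CT24, 13 genes were gained (all genes 0.231%), among them Olfr275 to Olfr270 on chromosome 4 and Olfr768, Olfr769 and Olfr770 on chromosome 10. In the same interval 6 were lost (all genes 0.476%), from Olfr870 to Olfr18 on chromosome 9. From CT24 to CT30, 0 were gained (all genes 0.509%) and 89 lost, 15.1% of the 590, where 2.22% of all autosomal protein-coding genes were lost. Of the 89, 54 were in the chromosome 10 cluster, 17 in the chromosome 19 cluster, 14 in the 95-gene cluster and 4 on chromosome 4. The CT30 mice were also those with grid steps of 31 and 46 kb, and the CT24 mice had 14 and 18 kb, so the time and the grid step cannot be told apart in this count. When LADs shorter than 1 Mb were left out, the total over the 6 intervals was 73 genes gained and 171 lost, in place of 38 and 103. Leaving out 1 mouse gave totals of up to 172 gained (without NS replicate 2) and 213 lost (without CT30 replicate 2).

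Genes that serve olfactory receptors elsewhere in the cell were outside LADs in every mouse. Of 17 genes for receptor signalling and trafficking, 0 were in a LAD in any of the 14 mice. They include Adcy3, the adenylyl cyclase of odorant signalling, Cnga2, a subunit of the cyclic nucleotide-gated channel, Omp, the olfactory marker protein gene, and Rtp1 and Rtp2, which carry receptors to the membrane. Of 11 genes linked to receptor choice and nuclear organisation the count was also 0. Among them are Lhx2 and Ldb1, which bring receptor enhancers together, Ebf1, Kdm1a, a histone demethylase, and Lbr, the lamin B receptor, which is low in sensory neurons. The 15 trace amine-associated receptors (Taar), a further receptor family that stands in 1 array on chromosome 10, were likewise in no LAD. No LAD in any mouse was the state of 82.9% of all autosomal protein-coding genes, so it is the common state. The lists are short, Cnga2 lies on chromosome X and the Taar genes share 1 array. A difference from that background was not tested.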

How the data were processed

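LMNB1 ChIP-seq LADs of 14 mice, 2 per time point, were analysed, and the inputs and RNA-seq were not used here. The deposited intervals are start and end on mm10 with no score, an other unit of base-pair positions, made by the authors by mapping with Bowtie2, duplicate removal with Picard, down-sampling of ChIP and input to equal depth per chromosome, and LAD calling per mouse with Enriched Domain Detector. The depth behind a LAD is not given in the sources used here.

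Genes, start sites and clusters were from GENCODE vM21, and upstream sequence from GRCm38.p6 at the GENCODE start. RefSeq promoter entries existed for 481 of the 590 genes, but only 73 started within 100 bp of the GENCODE start, so they were not used. Each start site was scored inside or outside a LAD per library (Python 3.11.15, NumPy 2.4.6, pandas 2.3.3), clusters joined start sites at most 1 Mb apart, and 0 LADs ended beyond a chromosome. Shares were compared with exact permutation tests over libraries (F ratio over time points, 2 against 2 mice, or sign-flip within libraries), adjusted by Benjamini-Hochberg. The F ratio and sign-flip tests were checked on simulated independent normal values. These lack the repeated values of 0 that the coverage of many clusters has. P values refer to differences over these mice with the gene sets held fixed, and do not cover variation between clusters.

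Genes named are the first and last of each cluster of 10 or more, lone genes, genes in a LAD in all libraries, up to 5 genes gained or lost per interval, and pairs at a border found in 7 or more libraries, besides ends of runs of genes with equal counts and neighbouring genes, which were chosen after their values were seen. The members, gene lists and rules were chosen with earlier results of these data known.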

Additional observations from a re-analysis of the deposited data

How the results depend on the processing

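Of 258 alternative values, 244 kept their direction and their side of the threshold, or moved by less than the spread or 1.5 times. The excess of Olfr genes over other genes stayed above 0 and past the threshold in its 21 tested alternatives, from 26.7 to 36 points, and above 0 in 5 subsets of libraries without a test, from 20.1 to 43.7 points. The excess of larger clusters was 58.3 points in the 3 libraries numbered 3. When LADs shorter than 1 Mb were left out, the range of the CT means was 29.2 points (exact permutation p = 0.0490), and 73 genes were gained and 171 lost in both mice. With 1 library left out, CT0 minus NS ranged from -7.37 (without NS replicate 1) to 33.3 points (without NS replicate 2), genes in a LAD in all libraries from 8 to 29 (23 without NS replicate 1, 29 without CT30 replicate 2), genes gained from 38 to 172 and genes lost from 107 to 213. The gained count was 172 without replicate 2 of NS, 75 of CT0, 130 of CT6 and 91 of CT18, and the lost count 173 without CT18 replicate 2 and 213 without CT30 replicate 2. A time point with a lone mouse was scored from that mouse. Without NS replicate 1 and CT30 replicate 1, chosen after seeing the data, 81 genes were in a LAD in all remaining libraries. The cause of these shifts beyond the smaller number of libraries or LADs was not tested.

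With the replicate number as a block, the exact permutation p over the CTs was 0.1375, and the smallest adjusted p of a cluster was 0.758; the block changed no call. Over 21 pairs of time points the correlation of same-numbered mice ranged from -0.109 to 0.457, and 6 were over 0.1. The replicate numbers were therefore not taken to pair the mice. By the running numbers 1, 2 and 3, the excess of Olfr genes over other genes averaged 21.0, 36.6 and 43.7 points (n = 6, 5 and 3). Grid steps were 14 to 61 kb, 6 to 46 kb and 4 to 5 kb in these sets. The part of the running number was not tested.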
